A study of Mus musculus with 2 samples.

Results

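Janus kinases and STAT factors carry cytokine signals from the cell surface to the nucleus. The kinases sit on the inner tails of cytokine receptors, are activated when a cytokine joins the receptor chains, and phosphorylate STAT proteins, which pair and move to the nucleus to switch on genes. In macrophages and their osteoclast descendants this route serves interferons, interleukins and colony-stimulating factors. The 9 genes described here are the transcription factor genes Stat2, Stat3, Stat4, Stat5a, Stat5b and Stat6 and the kinase genes Jak1, Jak2 and Tyk2. They were taken by gene name from the non-control probes of the array, which gave 16 probes on 34 spots, and 8 of the 9 genes are among the 16023 genes measured on both arrays.

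The study asked how modelled microgravity alters gene expression as precursors turn into osteoclasts, the cells that resorb bone, which RANKL, a cytokine, induces from macrophage precursors. It used RAW 264.7, a mouse macrophage-like cell line, with 1 array of cells labelled control, kept at ground level, and 1 of cells labelled RCCS, a rotary culture system that keeps cells in suspension. Cells were in culture for 24 h in the RCCS and had RANKL at 80 ng/ml for 24 h, and the protocol text, the same for both samples, does not settle whether the control cells also received RANKL. Rotation, suspension and any difference in RANKL therefore cannot be told apart, and every difference below is RCCS against control in 1 culture each, with no replicate check and no test.

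The values are processed signals, the background-subtracted spot intensities of the scanner software, given before scaling. Log2 ratios are RCCS minus control after each array was divided by its 75th percentile, 849 for control and 966 for RCCS. A probe is called detected on an array where the software marks it well above background, and measured where it is detected on both; the lowest detected signal was 24.2 for control and 21.2 for RCCS. The software's own spot error gives a 95% half-width of about 0.40 on the log2 scale for a probe with 1 spot, and it covers the spot and not the culture. Over all measured genes the median log2 ratio stood at -0.13. Of these genes, 3.88% were at least 2-fold higher on the RCCS array and 3.78% at least 2-fold lower. Of 12 macrophage marker genes 11 were measured, 1 at least 2-fold higher and 0 lower, with a median of 0.08, and Mertk was detected on neither array. Itgam, an integrin chain of myeloid cells, went from 1135 to 5153 (1.98 and 2.02 on the log2 scale for its 2 probes), while Spi1, a myeloid transcription factor, was at -0.72 and Aif1, a calcium-binding protein of macrophages, at -0.54. The summed signal of the list, 753716 for control and 900820 for RCCS, includes Lyz2 at 361675 and 424976. Of 19 markers of other cell types that had probes, 9 were measured, 2 at least 2-fold higher and 1 lower, and none exceeded a signal of 168 on any array. They summed to 760.0 and 906, a gap close to that of Runx2, a transcription factor of bone-forming cells, which went from 31.9 to 168 (2.21, and 0.71 with no filter on dim probes). Cd3e, a T cell receptor chain, was at -0.70, while Cd3g, another chain of that receptor, went from 30.2 to 79.2 (1.21). Cd79a, a B cell receptor chain, was at 0.86, Col1a2, a collagen of fibroblasts, at -0.55 and the epithelial Epcam at -1.54. Of the 9 measured markers of other cell types, 3 lay above 0 and 6 below. The part of other cells in the results was not tested. In such bulk RNA, fewer cells of a type and less RNA per cell cannot be told apart.

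Among the 8 measured members, 1 gene was at least 2-fold lower under RCCS (3.78% of all measured genes) and 1 at least 2-fold higher (3.88%). The lower one was Stat2, the interferon-pathway member of the family, and the higher one was Jak2, the kinase of the GM-CSF and interferon gamma receptors. The other 6 lay between, with Jak1 above the 1.5-fold mark and Stat5a, Stat3, Stat6, Tyk2 and Stat5b within it. At 1.5-fold, 2 members were higher and 1 lower, where 9.74% and 14.9% of all measured genes passed. The member median was 0.26, against -0.13 for all measured genes, with 6 members above 0 and 2 below. By probe, 1 of 14 measured probes was at least 2-fold higher (4.15% of all measured probes) and 1 at least 2-fold lower (4.11%).

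The promoter windows below belong to the members with the largest ratios and to the one with a matching motif but no detected signal. They come from RefSeq on GRCm38.p6 and run from 250 bases before to 50 bases after an annotated start, 5′ to 3′ on the gene's strand. Capitals mark the core of the interferon-stimulated response element, the site bound by STAT2 with IRF9, searched as GAAANNGAAA on both strands. Stat2 is at chr10:128270248-128270547 on the plus strand, the second annotated start of Stat4 is at chr1:52007990-52008289 on the plus strand, and Jak2 is at chr19:29251553-29251852 on the plus strand.
Stat2: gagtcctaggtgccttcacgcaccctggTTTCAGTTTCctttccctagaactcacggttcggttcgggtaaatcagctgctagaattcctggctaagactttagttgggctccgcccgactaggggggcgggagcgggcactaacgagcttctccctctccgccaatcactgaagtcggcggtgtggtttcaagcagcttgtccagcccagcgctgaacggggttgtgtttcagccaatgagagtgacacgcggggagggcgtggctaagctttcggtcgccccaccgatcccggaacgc
Stat4: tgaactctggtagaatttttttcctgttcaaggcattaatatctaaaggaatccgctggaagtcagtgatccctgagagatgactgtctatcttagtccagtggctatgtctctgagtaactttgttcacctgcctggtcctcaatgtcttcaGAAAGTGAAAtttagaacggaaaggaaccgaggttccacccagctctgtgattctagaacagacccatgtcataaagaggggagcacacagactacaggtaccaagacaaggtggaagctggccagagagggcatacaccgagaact
Jak2: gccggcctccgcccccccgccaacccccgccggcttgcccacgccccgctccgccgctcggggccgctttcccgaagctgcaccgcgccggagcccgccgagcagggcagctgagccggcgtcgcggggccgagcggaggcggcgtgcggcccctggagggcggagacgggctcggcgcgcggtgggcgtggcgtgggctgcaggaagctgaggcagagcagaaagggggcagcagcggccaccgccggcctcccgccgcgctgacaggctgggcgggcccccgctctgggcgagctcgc
The 9 members have 12 such windows, and the core occurred in 2 of them. In Stat2 it lies on the opposite strand and reads TTTCAGTTTC in the printed direction, starting at position -222 relative to the annotated start. In Stat4 it reads GAAAGTGAAA on the gene's strand. Of all 32851 windows in the reference table, 3.44% hold this core. The other interferon-related motif searched, the GAS palindrome TTCNNNGAA, occurred in 0 of the 12 member windows and in 8.30% of all windows. The Jak2 window has 81.0% G and C, against a median of 52.7% over all windows. These matches describe letters and show no binding.

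**Figure D1:**
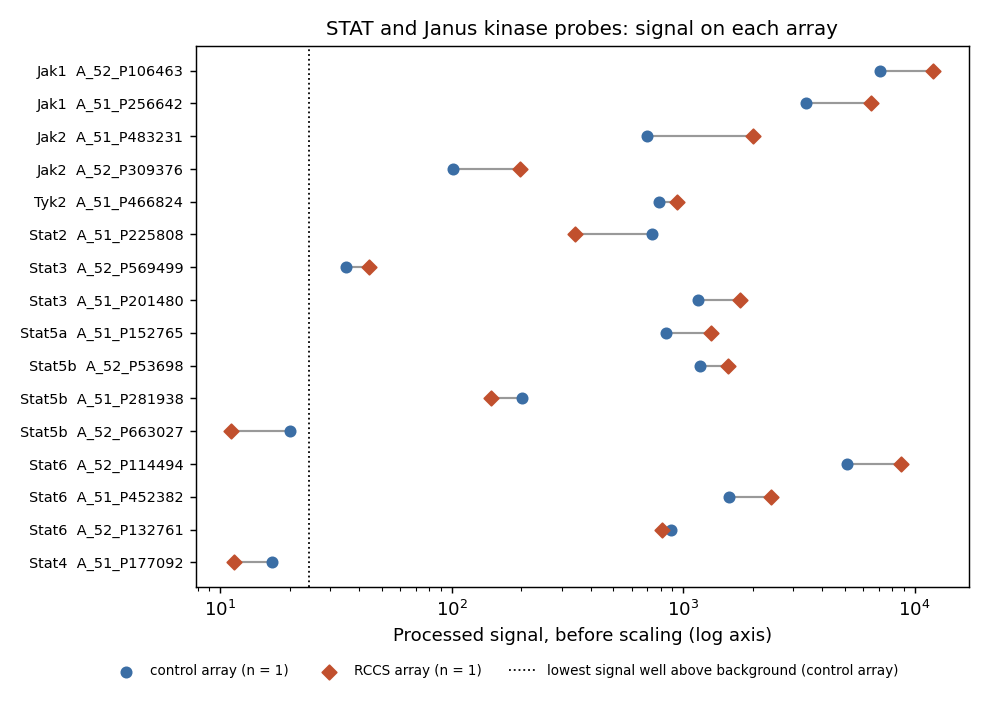
Processed signal before scaling (log axis) of the 16 probes of the 9 genes on the control array (circles) and the RCCS array (diamonds), 1 array each. The Stat4 probe and 1 of the 3 Stat5b probes lie left of the dotted line, which is the lowest detected signal on the control array; Stat2 stands out by its lower RCCS signal, 342 against 734.

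Of the kinases, Jak2 differed most between the arrays. JAK2 serves the receptors of GM-CSF, interleukin 3, erythropoietin and interferon gamma. Its probe at chr19:29011709-29011768, in the coordinates of the array file, whose genome build the sources used here do not state, had a signal of 699 for control and 2003 for RCCS. After scaling this was 2.52-fold higher, a log2 ratio of 1.33. The other Jak2 probe, 23150 bases further toward the start of the gene, went from 102 to 197, a log2 ratio of 0.77. Both probes were higher on the RCCS array, but only the first passed 2-fold. The gene mean was 1.05, which 3.45% of measured genes exceeded. Under the normexp background correction the gene mean came to 0.85 with 75th percentile scaling and also stayed under 2-fold with quantile normalization.

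Jak1, which pairs with other kinases on interferon, interleukin 6 class and common gamma chain receptors, had 2 probes 700 bases apart. The probe nearer the end of the gene had 7060 for control and 12061 for RCCS, and the other had 3402 and 6471. Their log2 ratios, 0.59 and 0.74, differed by less than the spot error. The gene mean was 0.66, or 1.58-fold higher, and 8.05% of measured genes lay above it. Tyk2, the partner of JAK1 on the interferon alpha and beta receptor, had 1 probe at 789 and 940. Its log2 ratio of 0.07 was smaller than the spot error. All 3 kinases had log2 ratios above 0, Tyk2 within its spot error, and Jak1 and Jak2 were each higher on both of their probes.

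Stat2 was the only measured member at least 2-fold lower. STAT2 joins IRF9 and a further STAT in the complex that answers type I interferon. Its 1 probe, at chr10:127793622-127793681 in the coordinates of the file, had 734 for control and 342 for RCCS. After scaling this was 2.44-fold lower, a log2 ratio of -1.29, and 1.72% of measured genes were lower still. The gene rests on 1 spot per array, and the software's 95% half-width for it was 0.40. Scaled on the spike-in probes it came to -0.98, just under 2-fold, the one of 12 alternatives in which it did not pass. 

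**Figure D2:**
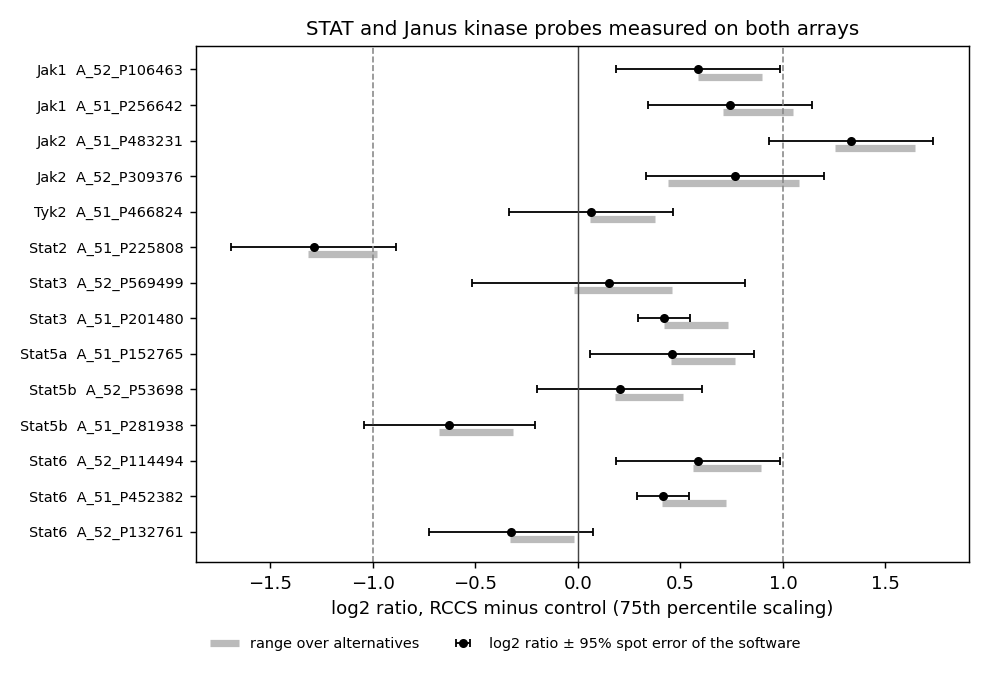
Log2 ratio, RCCS minus control, of the 14 probes measured on both arrays. Points are the values after 75th percentile scaling, whiskers the software's 95% spot error, grey bars the range over the processing alternatives that filter dim probes, and dashed lines 2-fold. Stat2 lies at -1.29 and the first Jak2 probe at 1.33; the Stat5b and Stat6 probes fall on both sides of 0.

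Stat3 and Stat6 each had a probe printed 10 times, so their spot spread was measured. STAT3 carries signals of interleukin 6, interleukin 10 and G-CSF. The repeated Stat3 probe ranged from 1066 to 1221 on the control array, with a median of 1162, and from 1630 to 1839 under RCCS (median 1772). Before scaling, the spots of the 2 arrays did not overlap. Spot by spot the log2 ratio ran from 0.37 to 0.51, with a mean of 0.42 ± 0.04 (SD over 10 spots of 1 probe). The spots are repeats on 1 array and not replicate cultures. Spot spread was small across the array. The median SD was 0.04 over 108 measured probes with at least 5 spots and a control signal of at least 100. With a spread this small, spots separate at a modest ratio, and how many of these probes also had no overlap was not counted. The second Stat3 probe, 3136 bases further toward the end of the gene, was dim, at 35.0 and 44.1, with a log2 ratio of 0.15 that its spot error exceeded. That probe lies 258 bases from the Stat5a probe on the other strand, since both genes run toward each other there.

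STAT6 answers interleukin 4 and interleukin 13. The repeated Stat6 probe ranged from 1499 to 1757 on the control array, with a median of 1568, and from 2300 to 2472 under RCCS (median 2403). Here too the spots of the arrays did not overlap before scaling, which was not counted over the other repeated probes. The log2 ratio was 0.41 ± 0.07 (SD over 10 spots of 1 probe), from 0.27 to 0.49. A second probe, 353 bases further toward the end of the gene, had 5120 and 8728 and a log2 ratio of 0.58. The third, 13706 bases upstream of that one, had 892 for control and 809 for RCCS and a log2 ratio of -0.33. The probes near the end of Stat6 were thus higher on the RCCS array. The upstream probe was lower, but within its 95% half-width of 0.40, and came to -0.02 with spike-in scaling. The gene mean of 0.22 averages over a gap of 0.91 between probes.

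**Figure D3:**
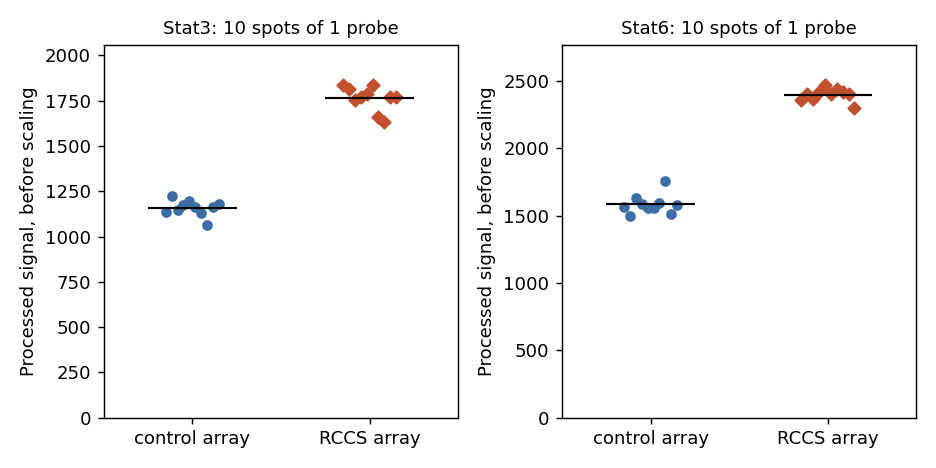
Processed signal before scaling of each of the 10 spots of the repeated Stat3 and Stat6 probes on the control array (circles) and the RCCS array (diamonds); black lines are means. In both genes every RCCS spot lies above every control spot, with ranges of 1066 to 1221 against 1630 to 1839 for Stat3. How often other repeated probes separate in this way was not counted.

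Stat5a and Stat5b are neighbouring genes on chromosome 11 that encode near-identical factors downstream of GM-CSF and interleukin 3. Whether probes of either bind both transcripts was not checked. The Stat5a probe had 846 for control and 1324 for RCCS, a log2 ratio of 0.46. For Stat5b the probe at the end of the gene had 1189 and 1557, a log2 ratio of 0.20. A probe 6555 bases upstream, whose coordinates span 1049 bases, had 202 and 149, a log2 ratio of -0.63. The 2 measured Stat5b probes went in opposite directions, 0.83 apart, though the 0.20 lay within its 95% half-width of 0.40. The gene mean of -0.21 turned to 0.20 when the brighter probe alone was used. The third Stat5b probe, 40621 bases upstream, was detected on neither array, at 20.1 and 11.2.

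Gaps of this size between probes occurred across the array. Among 5091 genes with at least 2 measured probes the median gap was 0.30 and the highest 10% began at 0.88. The gaps were 0.16 for Jak1, 0.27 for Stat3, 0.57 for Jak2, 0.83 for Stat5b and 0.91 for Stat6. In Jak2, Stat5b and Stat6 the upstream probe had the lower ratio, while in Jak1 and Stat3 the probe at the end of the gene had it. Stat4, which serves interleukin 12 mainly in lymphocytes, was detected on neither array, at 16.8 for control and 11.5 for RCCS, and no ratio is given for it.

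**Figure D4:**
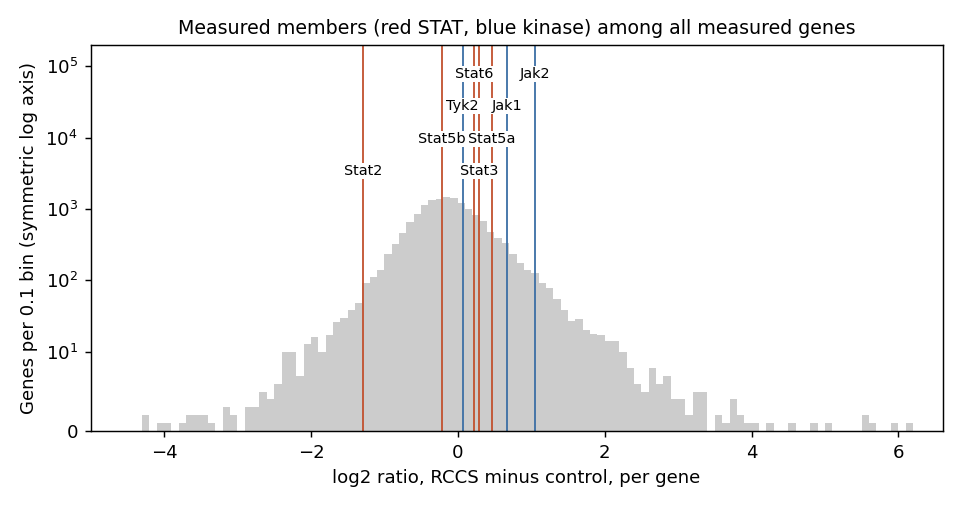
Number of genes per 0.1 of log2 ratio (grey, symmetric log axis) for the 16023 measured genes, with the 8 measured members as lines, STAT genes in red and kinase genes in blue. Stat2 lies in the lower tail at -1.29 and Jak2 in the upper at 1.05.

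The rest of the pathway was followed from ligands to target genes. Beside the list counts at 2-fold that follow, 3.88% of all measured genes were higher and 3.78% lower. Of 32 cytokine genes that signal through Janus kinases, 12 were measured, 1 at least 2-fold higher (0 to 4 over the alternatives) and 2 lower (1 to 2), and 15 were detected on neither array, among them Ifnb1, Ifna4 and Ifng. Il10, an anti-inflammatory cytokine, went from 74.3 to 199.8 (1.24 on the log2 scale, and as low as 0.76 with normexp). Il15, a lymphocyte growth factor, went from 642 to 207 (-1.69), and Clcf1, an interleukin 6 class cytokine, went from 59.9 to 136, just under 2-fold. Of 38 receptor genes 27 were measured, with 4 at least 2-fold higher, 1 lower and a median of -0.02. Csf2rb2, a beta chain of the interleukin 3 receptor in mouse, had 338 for control and 2877 for RCCS, 7.49-fold higher after scaling, and its probe may bind the related Csf2rb, whose own 2 probes averaged 254 and 324 (0.25). Il4ra, the interleukin 4 receptor chain upstream of STAT6, went from 267 to 1448, 4.78-fold higher. Il7r was 4.45-fold higher, and 2.71-fold with no filter on dim probes. The 1 lower receptor gene was Il6ra, an interleukin 6 receptor chain, which went from 819 to 345 (-1.43). Of the 27 measured receptor genes, 13 lay above 0 and 14 below, among the latter Il2rg at -0.94.

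Of 16 STAT partner and coactivator genes, all measured, 2 were at least 2-fold lower and 0 higher. Irf9, the DNA-binding partner of STAT2, averaged 4146 for control and 2455 for RCCS over 2 probes, a log2 ratio of -0.97. Nmi, which binds STAT proteins, was at -1.18, and Prmt1, an arginine methyltransferase, at -1.04. Both came under 2-fold with quantile, loess and spike-in scaling and with normexp followed by quantile normalization, Nmi reaching -0.87 and Prmt1 -0.65 at their nearest to 0. Among 22 negative regulators 19 were measured, 1 at least 2-fold higher and 2 lower, with a median of -0.07. Of the SOCS feedback inhibitors, Socs3, which restrains interleukin 6 class receptors, went from 2448 to 14112 (2.34), and Socs1, which restrains interferon receptors, from 837 to 428 (-1.15, or -0.84 with spike-in scaling). By gene mean Socs4, Socs5, Socs6 and Socs7 lay within 2-fold, at 0.37, 0.45, 0.07 and -0.64. The Socs4 probes ran from -0.11 to 1.05, the highest past 2-fold, and the Socs6 probes from -0.22 to 0.64. Socs2 was detected under RCCS only, close to the detection limit. Cish, a feedback inhibitor induced by STAT5, was detected under RCCS only, at 83.3 against 11.4, and so at least 3.03-fold higher. Usp18, a protease that removes ISG15 and damps the interferon receptor, went from 20276 to 5396 (-2.10).

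The target lists, drawn from textbook knowledge but with earlier results of these data known, are given by factor. Their counts therefore describe the lists and test nothing. Of 25 measured targets of STAT2 with IRF9, every one lay below 0 and 24 passed 2-fold, beside 3.78% of all measured genes, with a median of -2.08. Oasl2, Isg15 and Ifit3, antiviral genes, stood at -4.27, -4.23 and -3.56. On the same arrays Stat2 itself was at -1.29 and Irf9 at -0.97. STAT3 targets had 6 of 21 measured genes at least 2-fold higher and 2 lower, with a median of 0.24, and ran from Myc at -3.50, the growth regulator, through Socs3 at 2.34 to Lcn2, a siderophore-binding protein, at 4.05 (3.26 with normexp and 75th percentile scaling). STAT5 targets had 2 of 11 at least 2-fold higher and 0 lower, with Id1, an inhibitor of basic helix-loop-helix factors, at 3.78, the survival gene Bcl2l1 at 1.31 and the cytokine Osm at 0.92. The STAT5 list median was 0.30, with 8 genes above 0 and 3 below, Ccnd1 at -0.87, Spi1 at -0.72 and Pim1 at -0.53. STAT6 targets had 8 of 18 measured, 2 higher and 1 lower, with Tgm2, a transglutaminase, at 2.92, Il4ra at 2.26 and Socs1 at -1.15. Their median was -0.39, the lowest over the alternatives, and came to 0 with no filter on dim probes. Of the 8, 5 lay below 0 and 3 above. Among those below were Pparg, a nuclear receptor, at -0.97 and Egr2, a zinc finger factor, at -0.83. Chil3, at 25.1 for control and 24.4 for RCCS, and Ccl17, at 45.8 and 35.6, were also below 0 but dim. The median leaves out Arg1 and Ccl24, which were detected under RCCS only. The lists share members such as Socs1, Socs3, Il4ra and Usp18, and many targets also answer to other factors, whose part was not tested.

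**Figure D5:**
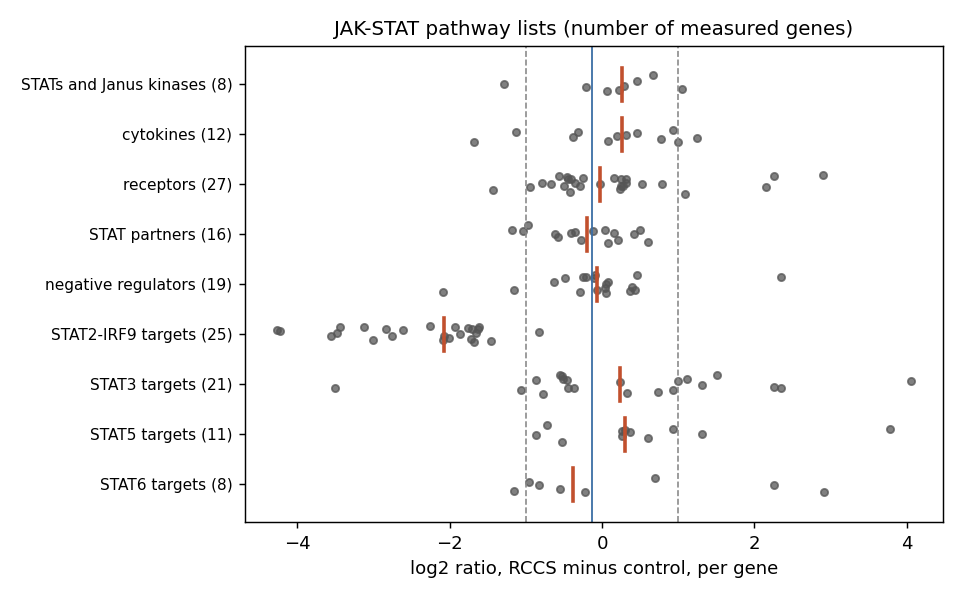
Log2 ratio, RCCS minus control, of each measured gene (points) in the JAK-STAT lists, with the list median in red, the median of all measured genes as the blue line at -0.13 and 2-fold as dashed lines. Targets of STAT2 with IRF9 lie below 0 throughout, with a median of -2.08; the other lists spread to both sides.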

How the data were processed

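RNA of 2 cultures was hybridised to 2 arrays of 1 slide in 1 colour. Per the file headers, the deposited spot intensities were made with Agilent Feature Extraction 9.5.3.1, which the submitters' processing notes also name, and were background-subtracted and detrended but not scaled between arrays. The second deposited table holds a ratio per probe; compared with the scanner files, its values are the processed signal over 849 (control) or 964 (RCCS), to within 0.01 or 1% for 99.9% of values above the table's floor of 0.01, at which 32.3% of values lie in both columns, so genes were not centred and neither column is relative to the other; both medians are 0.06. Non-control probes (41174) were averaged over spots after leaving out outlier spots (117 and 120), with 0 spots saturated, scaled to the 75th percentile and compared as log2 ratios of these intensities, computed here from the deposited values. A probe counted as measured where at least 50% of its spots were well above background on both arrays (57.5% of probes passed for control and 60.6% for RCCS), and a gene took the mean over its measured probes. Accessions of 22951 probes matched the reference table of GRCm38.p6 and were named from it, and 18223 kept the file's name. With 1 array per condition no test was made, and the number of arrays limits the precision. A gene well above background on 1 array has a bound: its signal there against the higher of its own and the lowest well-above-background signal on the other array, after scaling. Named are all 9 members and, of each list, the 3 measured genes with the largest absolute log2 ratio and a signal of at least 100, with Irf9, Socs1, Socs3 and Cish. Other named genes were picked with their values in view. These are the list members not well above background, Lyz2, Epcam, Cd3g, Cd79a, Csf2rb, Il6ra, Il2rg, Ccnd1, Pim1, Spi1 as a STAT5 target, Pparg, Egr2, the other SOCS genes and the genes of the closing section. Chil3 and Ccl17 were picked in the same way. The members and lists were chosen with earlier results of these data known. The ratio computation was tested on simulated data. Alternatives covered scaling, background correction (limma 3.58.1, normexp with an offset of 50), the deposited table, the filters, outlier spots, the summary of probes and the fold threshold. Python 3.11.15 was used for the rest.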

Additional observations from a re-analysis of the deposited data

How the results depend on the processing

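No paired analysis was possible because each group has 1 array. Of 96 gene-level values of the 8 measured members under the alternatives, 90 moved by less than the 95% spot error and 6 by more. For 0 called values the sign changed. Of 153 probe values, 149, 4 and 0 did so. These counts are a weak check. The 95% half-width of a probe with 1 spot, about 0.40, exceeds the 0.31 added by spike-in scaling. Stat2, Stat5a and Tyk2 therefore could not count as moved by it, and Stat2 falling to -0.98 is among the 90. Keeping outlier spots left the member values unchanged. The calls depend on single settings. Member genes at least 2-fold higher numbered 2 at a 1.5-fold threshold and 0 under both normexp settings, in place of 1. Member genes at least 2-fold lower numbered 0 with spike-in scaling, in place of 1. Member probes at least 2-fold higher numbered 4 at 1.5-fold and 3 with spike-in scaling, and lower ones 2 at 1.5-fold and 0 with spike-in scaling, in place of 1 each. Spike-in scaling adds 0.31 to every ratio, which shows its part in these counts; equal spiking of both RNAs is not stated in the sources used here. It moves the share of higher genes among all 2-fold calls to 82.1% from 50.7%, the 75th percentile of measured probes to 66.7%, loess scaling to 63.5% and normexp with quantile normalization to 62.6%. Jak2 was at least 2-fold higher in 10 of 12 alternatives and Stat2 at least 2-fold lower in 11 of 12. Stat5b turned above 0 in 2 of 12 and the dim Stat3 probe below 0 in 1 of 9; Jak1, Tyk2, Stat3, Stat5a and Stat6 gene means were above 0 in all 12. Dim probes (Stat4, 1 of Stat5b, 1 of Stat3) are limited by signal over background. List counts at 2-fold ranged over 12 alternatives from 0 to 4 for higher cytokines, 3 to 5 for higher receptors, 0 to 2 for lower partners, 6 to 9 for higher STAT3 targets and 2 to 3 for higher STAT6 targets; 24 targets of STAT2 with IRF9 were lower in each.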

Other observations

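Among 386 measured genes whose promoter windows hold the response element core GAAANNGAAA, 46 were at least 2-fold lower under RCCS (11.9%) and 23 at least 2-fold higher (5.96%), with a median of -0.21. Among 9608 measured genes with windows that lack it, 3.29% were at least 2-fold lower and 3.89% higher, with a median of -0.13. For the GAS palindrome TTCNNNGAA the shares of 847 genes were 5.67% lower and 4.96% higher, with a median of -0.16, beside 3.43% and 3.88% of 9147 genes whose windows lack it, with a median of -0.13. These are descriptions of 1 array each way, and Stat2 is among the genes with the core.

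Of the pathway and target lists, 12 genes were detected under RCCS only and 0 on the control array only, where the lowest detected signal was 21.2 under RCCS and 24.2 for control. The RCCS array also detected more of all probes, 60.6% against 57.5% on the control array. The share of all genes detected on 1 array only was not counted. For 4 of the 12, Il12a, Epo, Il2rb and Socs2, the RCCS signal lay between 23.6 and 26.1 and allows no fold. The other 8 have a bound above 1, and the largest are given here with Csf3r. Csf3, which encodes G-CSF, a cytokine that acts through STAT3, had 463 there against 25.6 on the control array and so was at least 15.9-fold higher, while its receptor gene Csf3r had 50.9 against 26.4 and was at least 1.70-fold higher. Cish, at least 3.03-fold higher, is given above. Arg1, the arginase induced through STAT6, had 201 against 6.92 and was at least 7.30-fold higher. Il6 had 59.1 against 7.01, at least 2.15-fold higher. Mrc1 and Retnla, other genes that STAT6 induces in macrophages, were detected on neither array.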
